A study of Mus musculus with 18 samples.

Results

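Bdnf encodes brain-derived neurotrophic factor, and its locus was taken here as the mouse gene with 100 kb on either side in the mm10 genome. It is 1 of 21887 protein-coding genes, and 3 of the 35717 regions formed by merging 8 peak lists fell in this window. The lists come from chromatin immunoprecipitation with sequencing in primary immature neurons, cultured from mouse embryos of embryonic day 14 and held 2 days in vitro. Neurons were left untreated (control) or received 10 mM 2-deoxyglucose (2-DG), a glucose analogue that blocks glycolysis, for 6 h, and no genotype or strain is named in the labels. The series design names an ATF4 antibody for both treatments, while control samples carry none as their antibody label, so treatment and antibody cannot be told apart from the labels alone. Each treatment had 4 lists with agreeing labels (titles 1, 5, 9 and 13 for control, and 2, 6, 10 and 14 for 2-DG, called replicates 1 to 4), whereas the series design states 3 independent replicates. The lists titled 17 and 18 name one treatment in the title and the other in the description, and are shown apart. The question put by the study's title is whether 2-DG acts on Bdnf transcription through ATF4. Peak lists hold no expression, so neither the cell type nor the Bdnf transcript could be checked.

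BDNF is a secreted neurotrophin that binds the receptor TrkB and supports the survival, growth and synaptic plasticity of neurons. Its gene is known for several alternative promoters, each with its own non-coding first exon that is spliced to a shared coding exon, and some of these promoters respond to neuronal activity through CREB. ATF4 is a basic leucine zipper factor of the integrated stress response, made when eIF2 is phosphorylated, which binds with C/EBP family partners to a composite element.

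In the 2-DG lists Bdnf carried 1 peak, and that peak lay inside the gene and outside the 300-base windows at its 7 annotated transcript starts. The gene spans chromosome 2, 109674700 to 109727043, on the plus strand, over 52344 bp. All 4 2-DG lists had it, against 1 of 4 control lists (replicate 1). Its merged extent, chr2:109677958-109678536, covered 579 bp. The mean 2-DG summit, base 109678254, lay 3554 bp past the first transcript start and 1222 bp past the second. Whether this stretch is exonic or intronic, and its sequence, were not analysed here, since the reference tables hold neither.

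RefSeq (GRCm38.p6, the assembly that mm10 names) gives 7 transcript starts for Bdnf, at bases 109674700, 109677032, 109692436, 109693027, 109694409, 109709383 and 109722921. For each start a promoter window of 300 bases was available, from 250 bases before it to 50 after. None of the 7 windows touched a peak in any of the 10 lists. A peak within 2000 bp was found for the second start alone, in all 4 2-DG lists and control replicate 1, and it was the peak described above. From that window's last base to the region there were 876 bp. The next start downstream, the third, lay 14182 bp beyond the mean summit, and the last one 44667 bp beyond it.

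The windows printed here are those nearest the peak on either side (the second start and the third), the one Bdnf window with a match to the ATF4 composite element (the seventh start), and that of Chac1 for comparison. Chac1 encodes a glutathione-degrading enzyme and is an established ATF4 target whose window touched a peak in all 4 2-DG lists and 1 control list. Of the 8 established targets compared further on, 5 had such a window in all 4 2-DG lists, while Cebpb and Ddit4 had it in 0 and Sesn2 in 1. Capitals mark matches on either strand to TGATGNAA, a core of the C/EBP-ATF composite element, or to TGACG, the short core of the cAMP response element TGACGTCA. All 4 windows read along the plus strand, 5′ to 3′.
Bdnf, the second start, chr2:109676782-109677081: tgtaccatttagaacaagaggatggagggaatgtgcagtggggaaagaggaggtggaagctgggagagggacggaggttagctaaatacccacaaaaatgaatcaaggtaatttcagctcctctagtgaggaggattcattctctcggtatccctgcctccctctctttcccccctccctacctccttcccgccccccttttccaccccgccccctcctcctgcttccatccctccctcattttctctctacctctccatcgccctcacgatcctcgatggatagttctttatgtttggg
Bdnf, the third start, chr2:109692186-109692485: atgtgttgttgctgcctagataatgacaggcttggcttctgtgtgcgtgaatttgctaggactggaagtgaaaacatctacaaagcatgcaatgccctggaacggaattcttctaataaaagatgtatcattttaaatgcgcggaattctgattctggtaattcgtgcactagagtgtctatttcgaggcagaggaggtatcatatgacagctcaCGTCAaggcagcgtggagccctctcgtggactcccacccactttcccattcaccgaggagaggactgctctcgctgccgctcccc
Bdnf, the seventh start, chr2:109722671-109722970: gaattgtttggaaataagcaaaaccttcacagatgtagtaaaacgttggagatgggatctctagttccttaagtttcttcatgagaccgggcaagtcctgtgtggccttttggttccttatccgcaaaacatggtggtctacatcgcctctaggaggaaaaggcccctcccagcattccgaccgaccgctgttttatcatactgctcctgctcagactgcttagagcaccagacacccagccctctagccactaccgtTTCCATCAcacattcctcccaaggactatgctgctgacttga
Chac1, chr2:119350992-119351291: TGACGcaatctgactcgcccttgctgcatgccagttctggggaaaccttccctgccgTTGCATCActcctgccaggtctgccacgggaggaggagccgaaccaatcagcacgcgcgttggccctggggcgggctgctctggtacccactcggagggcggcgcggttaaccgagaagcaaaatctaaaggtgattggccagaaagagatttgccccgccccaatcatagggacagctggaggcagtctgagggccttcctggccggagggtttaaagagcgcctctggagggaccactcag

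TGATGNAA occurred in 1 of 7 Bdnf windows, starting 8 bases after the seventh start on the opposite strand, and neither TGATGCAA nor TGATGAAA, 2 of its forms, occurred in any. TGACG occurred in 1 of 7, starting 35 bases before the third start on the opposite strand, and TGACGTCA in 0. Over all 32851 promoter windows of this length, 3.97% held TGATGNAA, 0.895% TGATGCAA, 1.02% TGATGAAA, 1.79% TGACGTCA and 20.8% TGACG. Of the 75 windows that touched a peak in 4 of 4 2-DG lists and at most 1 control list, 45.3% held TGATGNAA, 28.0% TGATGCAA, 10.7% TGATGAAA, 1.33% TGACGTCA and 53.3% TGACG. In the Chac1 window TGATGNAA started 193 bases before the start on the opposite strand. These are matches of letters only, and the sequence under the Bdnf peak was not searched.

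**Figure D1:**
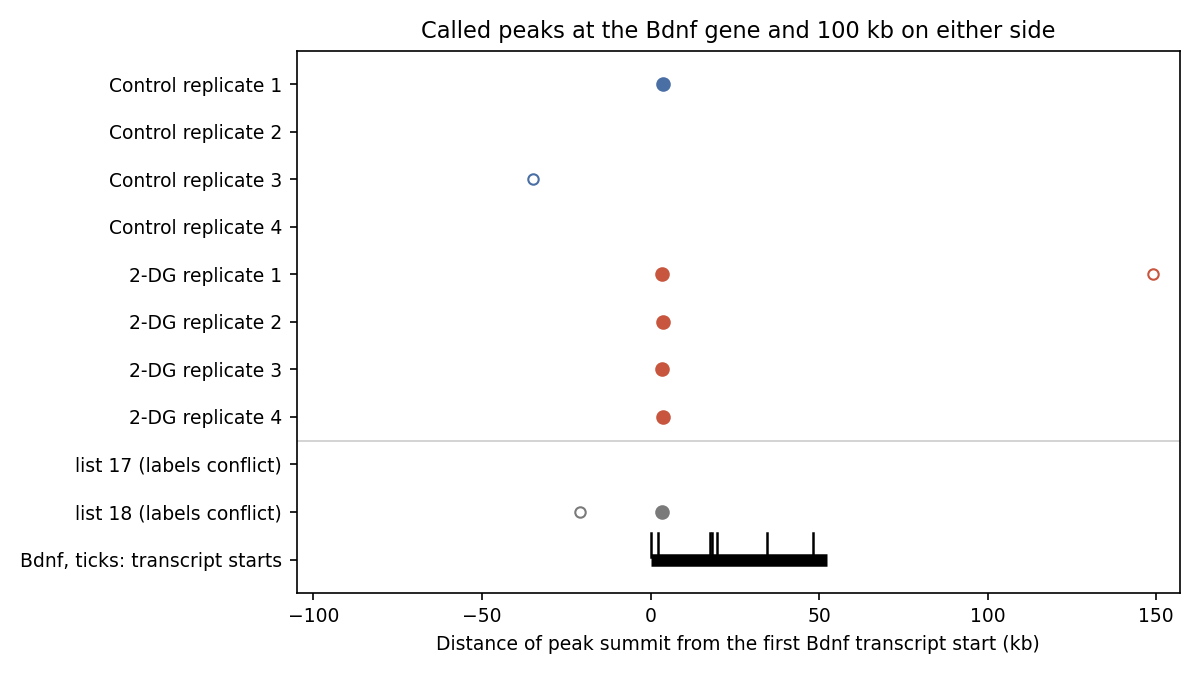
Position of each called peak summit (x axis, kb from the first Bdnf transcript start) in each list (rows). Filled points lie inside the gene and open points outside it, and the black bar is the gene with its 7 transcript starts as ticks. The peak inside the gene was called in 4 of 4 2-DG lists, control replicate 1 and list 18, and stands beside the second start.

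The heights at this site differed widely among lists. The deposited fold of a peak is the height of its summit over background, and every fold in a list was a whole multiple of 1 step, which gives the number of overlapping fragments at the summit and a single background level for the list (in fragments per base). In control replicate 1 the summit held 10 fragments over a background of 1.75, a fold of 4.00. In 2-DG replicate 1 it held 94 over 2.23, a fold of 29.4, and in 2-DG replicate 2 it held 55 over 1.81, a fold of 19.9. 2-DG replicates 1 and 2 thus had the tallest summits at the site. In 2-DG replicate 3 it held 14 over 1.04, a fold of 7.34. In 2-DG replicate 4 it held 27 over 2.01, a fold of 9.29. The deposited -log10 q values followed the same order, at 111, 56.8, 8.15 and 17.7 in 2-DG replicates 1 to 4 and 2.07 in control replicate 1.

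Counting error is large for the low summits. With exact 95% Poisson limits on the fragment count, which cover counting error only and take no account of the summit being the highest point, the control replicate 1 fold ran from 2.11 to 7.05. The limits were 4.23 to 12.0 in 2-DG replicate 3 and 6.24 to 13.4 in 2-DG replicate 4, both overlapping those of control replicate 1. They were 23.8 to 35.9 in 2-DG replicate 1 and 15.1 to 25.8 in 2-DG replicate 2, above the control replicate 1 limits. The authors' folds are values of single peaks and were not tested between lists.

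In control replicate 1 the peak stood 1 fragment above the lowest summit of that list (9 fragments), and 632 other peaks of the list had exactly its fold. In the 2-DG lists it stood 84, 46, 7 and 17 fragments above the lowest summit. Control replicates 2, 3 and 4 had no peak in the gene. The lowest folds called in those lists were 3.66, 3.74 and 3.54, below 7.34, the lowest Bdnf fold of a 2-DG list. What lay below their calls is not recorded in a peak list. Background levels overlapped between treatments, at 1.14 to 1.83 fragments per base in the control lists and 1.04 to 2.23 in the 2-DG lists.

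**Figure D2:**
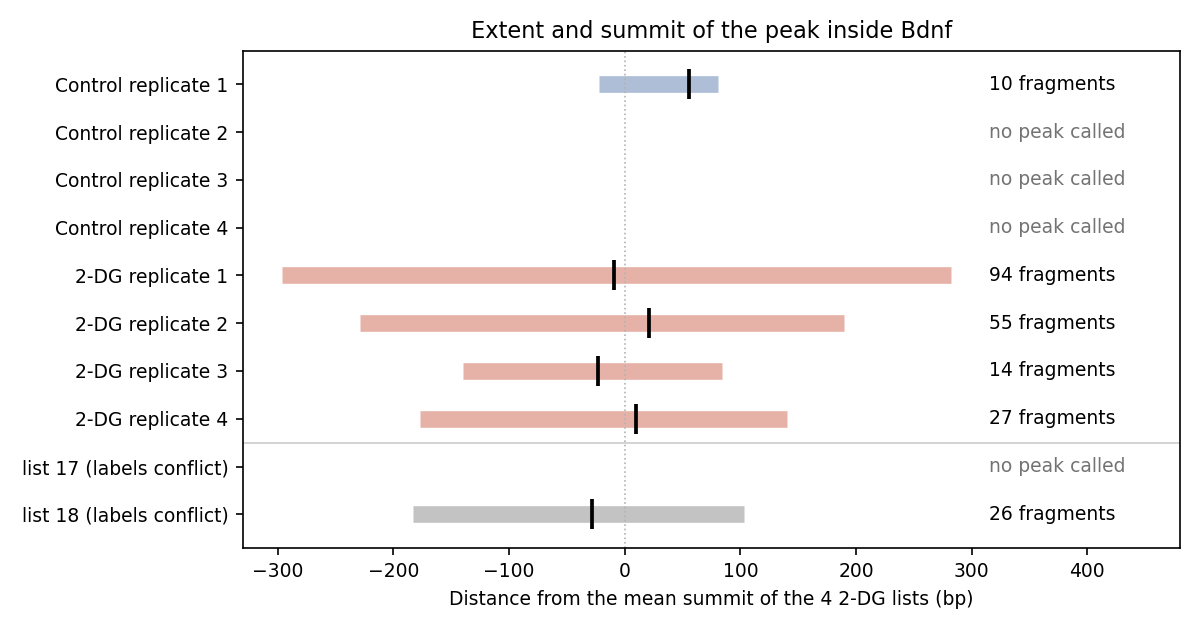
Extent (bar) and summit (black tick) of the peak inside Bdnf in each list, as distance in bp from the mean 2-DG summit, with the fragments at the summit. The 2-DG summits span 44 bp, and the control replicate 1 interval of 104 bp lies inside all 4 2-DG intervals.

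The position of the summit was closely shared. The 2-DG summits lay at bases 109678245, 109678275, 109678231 and 109678264, a span of 44 bp. The control replicate 1 summit, 109678310, lay 35 bp past the highest of them. The intervals of the 5 lists were nested, and their order by width matched that by fragments. The widths were 579, 420, 225 and 318 bp in 2-DG replicates 1 to 4 and 104 bp in control replicate 1. The narrowest interval, bases 109678232 to 109678335, was thus common to all 5 lists. Each of these 5 peaks had a single summit. Among the 716 merged regions called in 4 of 4 2-DG lists and at most 1 control list, the median span of the 2-DG summits was also 44 bp, so the agreement at Bdnf was that of a middling region of this class.

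Within each 2-DG list the Bdnf peak ranked in the upper part. By fold it was number 206 of 15240 peaks in replicate 1, 252 of 7369 in replicate 2, 640 of 6371 in replicate 3 and 570 of 5856 in replicate 4. The share of other peaks with a lower fold was 98.6%, 96.5%, 87.6% and 89.5%, a mean of 93.1% ± 5.35 (SD, n = 4). In control replicate 1 the peak was number 2012 of 3461, with 23.6% of other peaks lower. Ranks by -log10 q were identical. The peak was also wide for its lists, wider than 97.1%, 90.6%, 84.9% and 87.2% of other peaks in 2-DG replicates 1 to 4 and than 5.06% in control replicate 1. Of the 716 regions above, Bdnf was number 212 by mean share of lower peaks in the 2-DG lists, against a median region at 85.5%. Of the 313 among them that lay inside a protein-coding gene and over 2000 bp from both its ends, it was number 82.

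**Figure D3:**
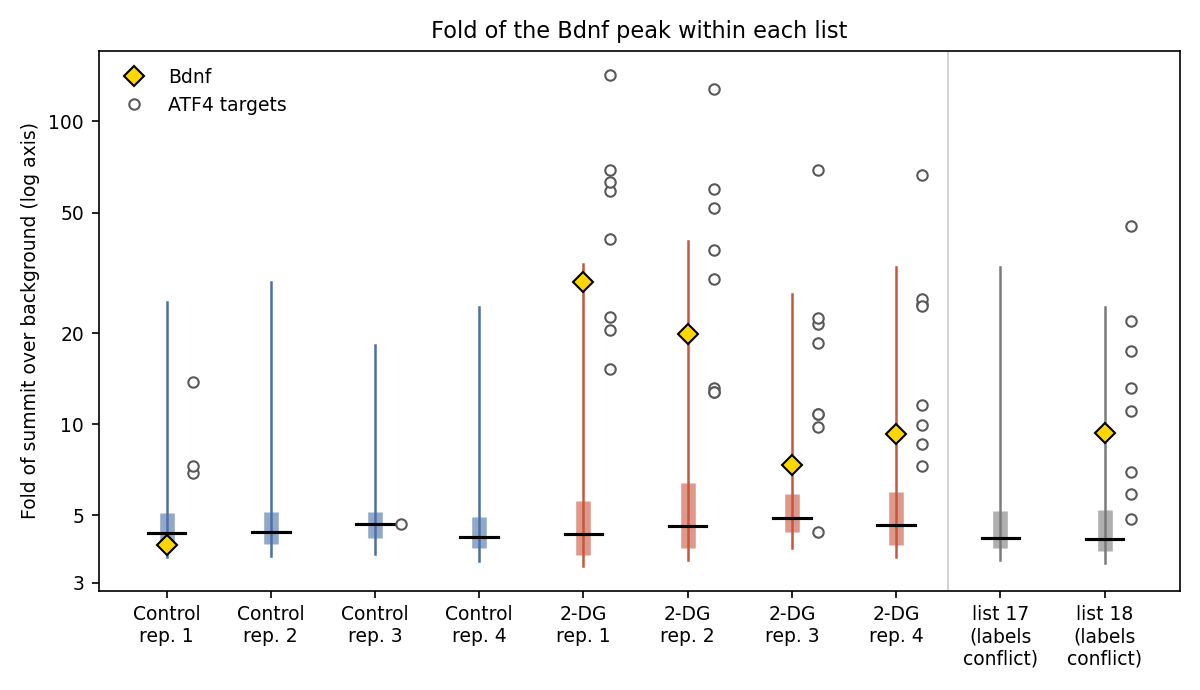
Fold of the summit over background (log axis) for the Bdnf peak (diamonds) and 8 established ATF4 targets (circles) in each list. Bars span the middle 50% of all peaks in the list, black lines are medians, and thin lines run from the lowest peak to the 99th percentile. Bdnf lies above the bar in the 2-DG lists, where 5, 5, 7 and 6 of the 8 targets lie above it.

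Beside 8 established ATF4 targets (Trib3, Chac1, Asns, Ddit3, Atf3, Sesn2, Cebpb and Ddit4), Bdnf stood in the lower part of the order of folds. All 8 had a peak in the gene or within 2000 bp of it in 4 of 4 2-DG lists. Over all protein-coding genes, 7.05% had such a peak in at least 3 of 4 2-DG lists, and the share for 4 of 4 was not counted. In 2-DG replicates 1 to 4, 5, 5, 7 and 6 of the 8 targets had a higher fold than Bdnf. Chac1 had the highest, at 142, 128, 69.0 and 66.7. The median target had 49.8, 34.0, 14.7 and 18.1. Cebpb, encoding a C/EBP partner of ATF4, was lower than Bdnf in all 4 lists, at 15.2, 12.8, 4.40 and 7.30. Atf3, a stress-induced repressor, was lower in replicates 1, 2 and 4, at 22.6, 13.2 and 8.63, and higher in replicate 3, at 10.8.

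Control replicate 1, the control list with the Bdnf peak, also had peaks at 3 of the 8 targets. These were Chac1 (fold 13.8), Ddit3 (7.27), which encodes CHOP, and Asns (6.91), which encodes asparagine synthetase. Control replicate 3 had 1, at Chac1 (4.68), and control replicates 2 and 4 had 0. Control replicates 1 to 4 held 3461, 3784, 8202 and 6811 peaks. The share of all genes with a peak was not counted for single control lists, so these counts have no background. Of the 100 merged regions called in 4 of 4 2-DG lists and exactly 1 control list, 73 had control replicate 1 as that list, against 5, 9 and 13 for replicates 2, 3 and 4. The part of this list's make-up in the Bdnf result was not tested.

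With the lists as deposited, the difference in the number of lists with a Bdnf peak did not pass its test. For 4 of 4 against 1 of 4, Fisher's exact test (two-sided) gave p = 0.143, and Benjamini-Hochberg adjustment over 21887 genes gave 1. No gene could pass that adjustment, since the lowest unadjusted p that 4 lists against 4 allow is 0.0286, which 0.886% of genes reached. As background, 1.59% of protein-coding genes (348) had a peak in the gene body in 4 of 4 2-DG lists and at most 1 control list. Among the 4732 genes at least as long as Bdnf the share was 4.56%, and exactly the 5 lists of Bdnf held for 0.242% of all genes (53). In 6.34% of windows as long as the Bdnf window (252344 bp), laid end to end along the chromosomes, at least 1 region met the same rule.

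Peaks in the gene body numbered 1 in control replicate 1, 0 in the other control lists and 1 in each 2-DG list (difference 0.75, exact permutation p = 0.143, adjusted p over 4 locus measures = 0.19). With 100 kb added on either side they numbered 1, 0, 1 and 0, and 2, 1, 1 and 1 (difference 0.75, exact permutation p = 0.286, adjusted p = 0.286). Base pairs covered by peaks in that window were 104, 0, 151 and 0 in control replicates 1 to 4, against 813, 420, 225 and 318 in 2-DG replicates 1 to 4. Every 2-DG list had more covered bp than every control list, as held for 5.43% of the windows of this length. Windows with the groups apart in the other direction were not counted. The difference was 380 bp (exact permutation p = 0.0286, two-sided and the smallest possible here, adjusted p = 0.114). Width followed height, as given above. With only peaks of fold at least 5, which drops the control replicate 1 peak, the gene counted 4 of 4 against 0 of 4 (exact p = 0.0286, adjusted p = 0.0286). The 4 measures then rest on that same split at the smallest possible p, so adjustment over them changes nothing. The share of genes with that split at this limit was not counted. With the pair of conflicting lists added by title, the difference in gene-body peaks was 0.8 (exact permutation p = 0.0476, adjusted p = 0.0635). With the pair added by description it was 0.4 (exact permutation p = 0.524, adjusted p = 0.698). Of the 8 established ATF4 targets, list 18 had a peak at 8 and list 17 at 0. List 18 held 7847 peaks and list 17 held 4335. The share of all genes with a peak was not counted for either list, so these counts have no background. No label ties the 4 lists of a treatment to separate cultures, so these p-values measure only the spread between lists, which may be technical.

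Each flank held 1 peak in 1 of the 8 lists, and neither recurred. The whole window held 3 merged regions, beside 35717 merged regions and 10775 windows of this length in all. Control replicate 3 had a peak at bases 109639887 to 109640037, with its summit 34767 bp before the gene (fold 4.68, -log10 q 2.75). 2-DG replicate 1 had one at bases 109823653 to 109823886, 96738 bp past the end of the gene (fold 6.80, -log10 q 10.7). That list is the longest, and 82.6% of its other peaks had a lower fold. The annotated neighbours held none. The pseudogene Gm13932, the one other gene of the table in the window, and the nearest protein-coding genes had 0 peaks within 2000 bp in all 10 lists. Those genes are Kif18a, a mitotic kinesin gene ending 332951 bp before Bdnf, and Lin7c, a synaptic scaffold gene starting 163835 bp past it. From the mean 2-DG summit, Gm13932 lay 113674 bp away, Lin7c 212624 bp and Kif18a 336505 bp. Apart from Bdnf, Lin7c and Kif18a were the nearest protein-coding genes on their sides of the peak.

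List 18, titled 2-DG and described as control, had the Bdnf peak at bases 109678071 to 109678357. Its summit, 109678226, lay 5 bp before the lowest of the 2-DG summits. The summit held 26 fragments over a background of 1.88, a fold of 9.38 with Poisson limits of 6.25 to 13.6. It ranked number 416 of 7847, with 94.4% of other peaks lower. The same list had a second peak 20908 bp before the gene, at the lowest fold of its list (3.47). List 17, titled control and described as 2-DG, had no peak in the window, with a background of 2.09 and a lowest called fold of 3.56. The list 18 fold thus lay within the range of the 2-DG lists. The backgrounds of lists 17 and 18 were both above those of the 4 control lists (at most 1.83) and within the range of the 2-DG lists (1.04 to 2.23).

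**Figure D4:**
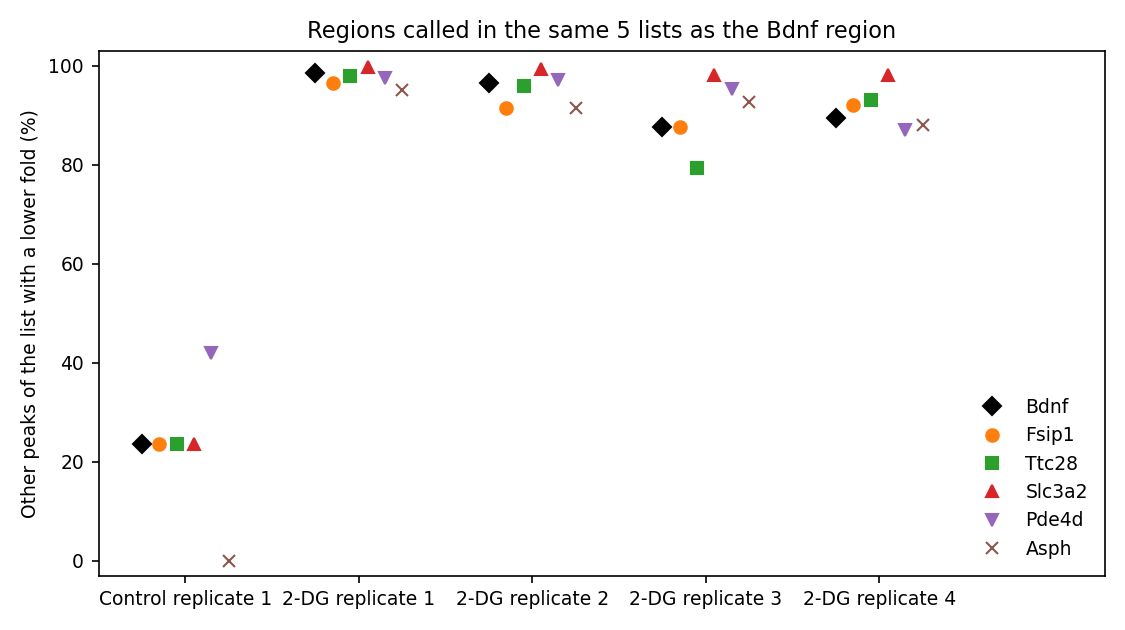
Share of the other peaks of a list with a lower fold (y axis, percent) for the Bdnf region and the 5 regions most like it, in each of the 5 lists that hold them. In control replicate 1 the 6 regions lie at or under 41.9%, and in the 2-DG lists at or above 79.3%.

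Regions with the call pattern of Bdnf were few. The 5 lists of the Bdnf region, and no other, held 73 of the 35717 merged regions (0.204%), and 23 of those, Bdnf among them, lay inside a protein-coding gene and over 2000 bp from its ends. Likeness was the mean absolute difference from Bdnf, over those 5 lists, in the share of other peaks with a lower fold. The closest regions lay in Fsip1 (1.97 percentage points), Ttc28 (2.59), Slc3a2 (4.66), Pde4d (6.07) and Asph (7.77). Slc3a2 encodes the heavy chain of amino acid exchangers and is known as an ATF4 target. Its region, chromosome 19, 8712744 to 8713669, had folds of 67.7, 55.5, 19.6 and 24.6 in 2-DG replicates 1 to 4 and, like Bdnf, of 4.00 in control replicate 1. Pde4d, a cAMP phosphodiesterase gene, had 20.7, 22.8, 11.2 and 8.30, and 4.36 in control replicate 1. The choice of these regions used their calls, so the likeness is a description.

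Genes of the BDNF pathway were read from 4 lists, counting a gene where a peak lay in it or within 2000 bp. These gene lists were drawn up with earlier results of these data known, so their counts are a description and no test of enrichment. The peaks of different lists need not share a site, and long genes have more room for one. Over all protein-coding genes, 7.05% had such a peak in at least 3 of 4 2-DG lists and 2.65% in at least 3 of 4 control lists. Of 11 neurotrophins and receptors, 3 reached the first count and 0 the second, and 3 had no peak in any of the 8 lists. Ntrk2, encoding TrkB, had folds of 4.95, 4.62 and 3.65 in 2-DG replicates 1, 2 and 4, and 5.15 and 3.89 in control replicates 3 and 4. The ranges of both treatments thus overlapped. Sorcs1, a sortilin-family sorting receptor gene, had 15.5, 9.25, 4.40 and 6.64 in the 2-DG lists and 3.74 and 4.24 in control replicates 3 and 4. Sorcs2, a co-receptor gene for proBDNF, had a peak in 3 2-DG lists and 2 control lists, at folds of at most 5.26.

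Of 19 genes of BDNF processing and release, 1 had a peak in at least 3 2-DG lists, and it also had one in 3 control lists. This was Cadps, a priming factor of dense-core vesicle release, with 10.2, 7.83, 5.87 and 3.98 in the 2-DG lists and 3.66, 4.68 and 4.95 in control replicates 2 to 4. Of 25 genes of TrkB signalling, 3 reached at least 3 2-DG lists and 2 at least 3 control lists. Rps6ka5, encoding the CREB kinase MSK1, had folds of 43.6, 30.6, 9.78 and 17.9 in the 2-DG lists, higher than Bdnf in each of them, and no peak in a control list. It was also called in list 18 (12.2) and not in list 17. Rapgef1, an exchange factor gene for Rap proteins, had a peak in 3 2-DG lists and 1 control list, and Camk4, another CREB kinase gene, in 3 and 3. Shc3, an adaptor gene, had one in 2 2-DG lists and 3 control lists.

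Of 34 regulators of Bdnf transcription, 6 had a peak in at least 3 2-DG lists, and 1 of them, the coactivator gene Ppargc1a, also in 3 control lists. Ppargc1a had folds of 5.57, 4.62, 4.40 and 4.65 in the 2-DG lists and 4.00, 4.40 and 7.02 in control replicates 1 to 3. Crtc1, another of the 6, had 3.71, 3.56 and 4.31 in 2-DG replicates 1, 2 and 4 and 6.08 in control replicate 3. Ppargc1a and Crtc1 are named after their values were seen. Tcf4, a basic helix-loop-helix factor gene, had 20.4, 13.9, 6.85 and 7.30 in the 2-DG lists and 7.02 and 4.24 in control replicates 3 and 4. Kdm6b, an H3K27 demethylase gene, had 16.1, 8.89, 5.87 and 6.30 and no control peak. Creb1, encoding CREB, had 4.33, 7.83, 7.34 and 11.3 and also 12.4 and 13.8 in control replicates 1 and 4, so its highest fold was in a control list. Arnt2, the partner of Npas4, had 5.88, 4.62, 5.87 and 6.97 and 5.15 in control replicate 3. Of 4 activity-regulated genes, Npas4, Arc and Nr4a1 each had a peak in 2-DG replicate 1 alone of the 8 lists, at folds of 4.02, 4.02 and 3.40, and Fos had none. That list is the longest (15240 peaks), with a median fold of 4.33 and a lowest of 3.40. The share of all genes with a peak in that list was not counted.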

How the data were processed

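Of 18 samples, 10 immunoprecipitations had a peak list. Input samples, 8 in number, were left out. The submitters' processing notes name mm10, BWA, Picard, MACS2 and DiffBind, without versions. By the peak names in the deposited files, lists were called per sample, not pooled. Each line of a deposited list holds the summit's fold over background (a ratio), its -log10 p, its -log10 q, and a score that repeats 10 times the -log10 q without decimals. The summit position is a deposited offset from the peak start.

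Lines with the same interval were taken as 1 peak, with the highest summit kept. Overlap means at least 1 bp. Groups followed titles that matched the other labels. Fragments at a summit were read from the authors' fold, taken as fragments plus 1 over background plus 1. All 78658 folds of the 10 lists were whole multiples of their list's step (tolerance 0.001 steps), and the 78455 -log10 p values that double precision can compute equalled the matching Poisson tail (tolerance 0.0001). This step was added after the data were seen. Gene positions and promoter windows came from RefSeq tables of GRCm38.p6, and all 101 list genes matched.

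Locus measures of the lists were tested with exact permutation (two-sided, 70 assignments) and Fisher's exact test, adjusted over 4 measures (Python 3.11.15, numpy 2.4.6, scipy 1.17.1). The code was tested on simulated data, where 200 of 200 genes planted in 5000 with the Bdnf call pattern were recovered. The named genes are Bdnf, its neighbours, 8 ATF4 targets, 4 activity-regulated genes, the 5 regions most like Bdnf, and up to 4 members per pathway list with a peak in 3 or more lists of either treatment, by mean share of lower peaks. Ppargc1a and Crtc1 were named outside this rule. The members and lists were chosen with earlier results of these data known. Alternatives were limits of 2 and 5 on -log10 q and of 5 on fold, equal list lengths (3461 peaks), every summit line, placement by summit, other margins and flanks, omitting each list, adding the conflicting pair and, added once the values were known, a block of neighbouring title numbers.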

Additional observations from a re-analysis of the deposited data

Results flagged for a closer look

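Control replicate 1 was the lone control list with a peak in the Bdnf gene body (1 peak, against 0 in each of the others), which places it far from the other control lists. 2-DG replicate 1 had 2 peaks in the window of the gene and 100 kb on either side, when each other 2-DG list had 1. Of 11 groups of 4 lists screened for a value far from the rest, these were the 2 found. A rate of 1 in 20 is what chance gives for continuous values, and it does not apply to counts in which a single list differs from an otherwise constant group.

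List 18, whose labels conflict and which entered no comparison, held the Bdnf peak at a fold of 9.38, above the 4.00 of the one control list that had it.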

How the results depend on the processing

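The differences in the 4 locus measures (gene-body peaks, window peaks, covered bp and share of lists with a peak) kept their direction under every alternative run. None passed an adjusted p of 0.05 as reported. With -log10 q of at least 5, and equally with fold of at least 5, the control lists had no peak left in the window. The differences were then 1, 1.25, 444 bp and 1, and all 4 passed at the smallest possible p (exact p = 0.0286, adjusted p = 0.0286). The 4 measures then rest on 1 split, 4 of 4 lists against 0 of 4, and are not separate results. The share of genes with that split at these limits was not counted. With the conflicting lists added by title, covered bp differed by 397 (exact permutation p = 0.00794, adjusted p = 0.0317) and the other 3 did not pass. With them added by description the differences were 0.4, 0.2, 211 bp and 0.4, with adjusted p from 0.698 to 1. Leaving out 1 list gave 0.667 to 1 for gene-body peaks and for the share of lists, 0.5 to 0.917 for window peaks and 257 to 453 for covered bp, none past the threshold. The smallest exact permutation p is then 0.0571. The difference in window peaks was 0.5 with a flank of 50 kb and 1 with 200 kb. The mean share of peaks below Bdnf was 93.1% by fold or -log10 q and 91.9% over summit lines, and 53 genes shared its call pattern, or 63 with margins of 2000 bp. No label pairs the lists. A replicate block of neighbouring title numbers was added once the values were known, and under it the differences of 0.75, 0.75, 380 bp and 0.75 gave exact p of 0.25, 0.25, 0.125 and 0.25, where 0.125 is the smallest possible. The low summits had wide Poisson limits for their size. The limits on fold overlapped between control replicate 1 (10 fragments) and 2-DG replicate 3 (14 fragments). Sequencing depth was not tested.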

Other observations

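The deposited folds carried no local background. Within each of the 10 lists every fold was a whole multiple of 1 step, and the same constant (1.04 to 2.23 fragments per base in the 8 compared lists) returned the deposited -log10 p for all 78455 summit lines within double precision. Fold and -log10 q therefore ranked the Bdnf peak identically, and neither value contains an input level that varies from site to site.

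Of the 1235 regions called in 4 of 4 2-DG lists, control replicates 1 to 4 held 41.7%, 38.5%, 37.8% and 41.0%, list 17 held 38.9% and list 18 held 88.6%. These regions were chosen by their calls in the 2-DG lists, so the shares are a description. The share of all merged regions held by each list was not counted.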
